A study of Macaca mulatta with 95 samples.

Results

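The cells described here are 11 outer cells of cultured rhesus macaque blastocysts, out of 95 single cells sequenced in all. They comprise 5 cells of the middle blastocyst (about day 5.5, with a larger cavity) and 6 cells of the early blastocyst (about day 5, with a small cavity). They were chosen by their titles alone, and no measured value entered the choice. Mature oocytes of hormone-stimulated females were fertilized and the embryos grew in HECM-9 medium with fetal bovine serum; the labels record no drug and no genetic change in either stage. After removal of the zona pellucida, the embryo was bathed in PKH2, a membrane dye, and a cell that glowed red once the embryo had been taken apart was classed as outer. Each cell was lysed singly, its complementary DNA was amplified by PCR, and its library was read as 100-base single-end reads.

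Cell titles carry a letter that the labels do not explain. All 5 outer cells of the middle blastocyst carry B and all 6 outer cells of the early blastocyst carry A, so stage and letter cannot be told apart among the outer cells. No label names an embryo, a mother or a culture. Each stage was therefore treated as 1 sample, no p-value is given, and every SD below is the spread from cell to cell within a stage, which may be technical. Cells of the middle blastocyst are B-01, B-02, B-03, B-06 and B-07, and those of the early blastocyst are A-02, A-05, A-06, A-08, A-09 and A-10. Values listed per cell keep that order.

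Outer cells of the blastocyst form the trophectoderm, the first epithelium of the embryo and the source of the placenta. In mouse embryos, outer cells keep Hippo signalling low, which lets YAP and TEAD4 switch on CDX2 and GATA3, while inner cells keep POU5F1 and NANOG and later split into epiblast and hypoblast. Between the early and the middle blastocyst the trophectoderm, sealed by junctions, pumps sodium inwards, water follows, and the cavity grows. The comparison asks how RNA levels in outer cells differ between a small and a larger cavity.

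Values are RPKM, read numbers divided by gene length in kilobases and by sequencing depth, a scale on which genes of different length can be set side by side. Summed over all 16049 genes, they came to between 557059 and 713711 in middle blastocyst cells and between 702920 and 745873 in early blastocyst cells. The relative depth, read from the steps between low values, was 0.862 to 1.54 in middle and 0.872 to 1.14 in early blastocyst cells. Genes at 1 RPKM or more numbered 2830 to 3932 per middle blastocyst cell and 2358 to 5250 per early blastocyst cell, with the highest number in A-08. ACTB, the cytoskeletal actin, averaged 41170 ± 23724 RPKM in middle and 27571 ± 9900 RPKM in early blastocyst cells (SD, n = 5 and 6 cells), and GAPDH, a glycolytic enzyme, 3141 ± 1832 RPKM and 3875 ± 1300 RPKM in middle and early blastocyst cells.

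One pair of early blastocyst cells had cell-specific genes in common. There were 19 genes at 100 RPKM or more in A-02 and under 2 RPKM in the 9 cells other than A-05, among them PRDM14 and SERPINF1. All 19 were present in A-05, at 14.2% to 28.5% of their level in A-02 (median 15.9%). The rank correlation of A-02 with A-05 across the 5288 measured genes was 0.80, against 0.50 to 0.61 for the other 14 pairs of early blastocyst cells and 0.43 to 0.67 for the 10 pairs of middle blastocyst cells. How this arose was not tested. A-05 was kept, and values without A-05 or without both cells are given for several results below.

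Faint traces also ran within each group of outer cells, where stage and letter cannot be told apart. Median relative depth was 1.24 in middle and 0.98 in early blastocyst cells, and its part in these traces was not tested. Genes at 100 RPKM or more in a single middle blastocyst cell and under 5 RPKM in the other 10 cells numbered 73. They were above 0 in 72.6% of the values of the other middle blastocyst cells, all of letter B, and in 24.9% of the values of early blastocyst cells. In early blastocyst cells there were 56 such genes, above 0 in 54.6% of the values of the other early blastocyst cells and in 36.4% of the values of middle blastocyst cells. The median trace was 0.0325% of the source within the middle and 0.0172% within the early blastocyst. Genes whose cells differed only near 0 were for this reason set apart from those with a clear gap.

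The labels class these cells as outer and name no lineage, so each cell was read for 12 trophectoderm markers. Of these, 5 to 10 reached 5 RPKM in middle blastocyst cells and 3 to 10 in early blastocyst cells. KRT8 and KRT18, the keratin pair of simple epithelia, were high in all 11 cells, with KRT18 at 606 to 24818 RPKM in middle and at 5432 to 17299 RPKM in early blastocyst cells. The fewest markers were found in A-06, with 3, and in A-09, with 4, where GATA3 stood at 0.542 and 3.45 RPKM.

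Markers of the inner lineages were not evenly spread over the cells. B-03 held 8 of the 9 hypoblast markers in the table at 5 RPKM or more, with GATA4 at 310, FOXA2 at 56.5 and SOX17 at 600 RPKM, and it had the lowest KRT18 of the 11 cells. B-02 had SOX17 at 308 RPKM and APOA1, an apolipoprotein of the hypoblast and its derivatives, at 3250 RPKM. By number of hypoblast markers at 5 RPKM or more, B-02 and A-06 held 5 each, and A-05, A-08 and A-09 held 6 each. A-02 held 6 of the 9 epiblast markers in the table at 5 RPKM or more, and A-05 held 5. POU5F1, the pluripotency factor known as OCT4, ran from 1031 to 4832 RPKM in middle and from 1523 to 5745 RPKM in early blastocyst cells, so no outer cell lacked it. GATA6, a further hypoblast marker, was not analysed here. Defining markers of cumulus, blood and sperm cells summed to at most 0.03 RPKM per cell, and fibroblast markers to at most 0.75 RPKM except in B-03, where COL1A2 stood at 37.6 RPKM. Of the longer lists for these cells, CD14 was at 91.8 RPKM in B-07, and GAPDHS, a glycolytic enzyme of sperm, at 49.2 RPKM in B-06 and 48.9 RPKM in A-09.

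**Figure D1:**
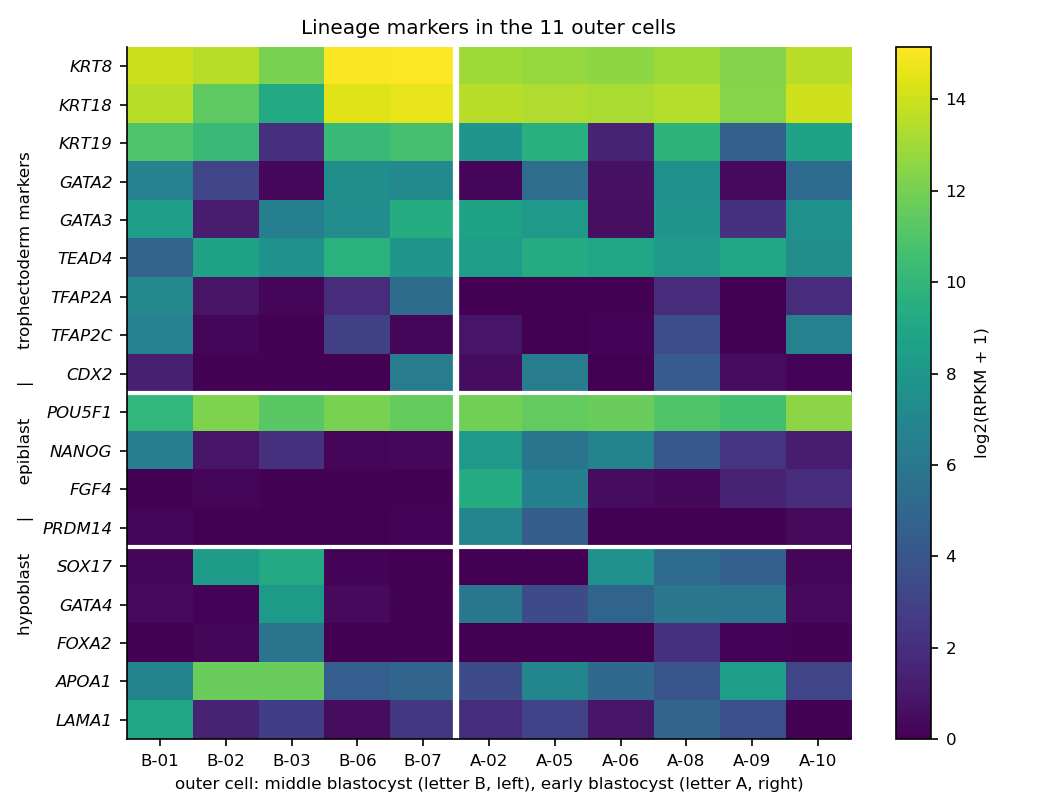
Lineage markers in each of the 11 outer cells, as log2(RPKM + 1) on a colour scale, with middle blastocyst cells (letter B) on the left and early blastocyst cells (letter A) on the right. KRT8, KRT18 and POU5F1 are bright in every column, SOX17 and APOA1 in B-02 and B-03, SOX17 also in A-06, and FGF4 and PRDM14 in A-02 and A-05.

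A log2 ratio below is the ratio of the mean RPKM of middle blastocyst cells over that of early blastocyst cells, with 1 RPKM added to each mean, and a gene counts as measured once either stage averages at least 5 RPKM. Of the 5288 measured genes, 1741 (32.9%) were at least 2-fold higher and 1898 (35.9%) at least 2-fold lower in middle blastocyst cells, with a median log2 ratio of -0.09. The counts for each gene list below have to be read against these shares. The cells of the stages did not overlap for 85 genes (1.61%) that were higher and 116 genes (2.19%) that were lower in middle blastocyst cells. In 23 of the 85 only 1 middle blastocyst cell reached 5 RPKM. A stricter reading, chosen after these traces had been seen, asked that every cell of the higher stage hold at least 5 RPKM and stand at least 2-fold (RPKM + 1) above the highest cell of the other stage. It left 6 genes (0.113%) clearly higher and 24 genes (0.454%) clearly lower in middle blastocyst cells.

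Among the genes clearly lower in middle blastocyst cells were 2 of very different level. TPT1, a growth-associated tubulin-binding protein, stood at 2155, 3096, 4482, 2485 and 3751 RPKM in middle blastocyst cells, against 29934, 31673, 16297, 22435, 23567 and 14451 RPKM in early blastocyst cells. HSPE1, the small partner of the mitochondrial chaperonin, stood at 1.28 to 7.62 RPKM in middle and at 86.3 to 479 RPKM in early blastocyst cells, a log2 ratio of -5.55. A gap between the highest middle and the lowest early blastocyst cell was the rule by which both genes were chosen.

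EEF1B2, a subunit of translation elongation factor 1, averaged 236 ± 196 RPKM in middle and 1738 ± 254 RPKM in early blastocyst cells (log2 ratio -2.88). LDHB, a lactate dehydrogenase subunit, averaged 250 ± 149 RPKM in middle and 1414 ± 632 RPKM in early blastocyst cells (log2 ratio -2.50). FABP5, a fatty acid binding protein, averaged 277 ± 260 RPKM in middle and 2397 ± 800 RPKM in early blastocyst cells (log2 ratio -3.11). That the lowest early blastocyst cell stood above the highest middle blastocyst cell for all 3 follows from the rule that chose them.

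TFAM, which packages mitochondrial DNA, averaged 6.88 ± 1.72 RPKM in middle and 74.5 ± 31.7 RPKM in early blastocyst cells. The other members included TIMM9 and MRPL15 (mitochondrial import and ribosome), C1QBP, HIGD1A, ISCU (iron-sulfur clusters), NOP58 (ribosomal RNA processing), NAP1L1 and ANP32B (histone chaperones), CACYBP, PTGES3 (a co-chaperone of HSP90), SSU72, PAPOLA, SH3BGRL2, ZFAND6, RWDD4 and CCDC120. The largest differences were those of CD320, the receptor for vitamin B12 bound to transcobalamin, with a log2 ratio of -7.75, and of C14orf166, a protein of the tRNA ligase complex, with -6.54. CD320 was nevertheless low in A-02, at 5.95 RPKM, and between 113 and 624 RPKM in the other early blastocyst cells.

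Those genes were low in every group of letter B, in outer middle blastocyst cells by the choice itself. Outer cells of both blastocyst stages served to choose the genes, so the gap between these groups was fixed in advance. The median over the 24 genes of the group mean was 23.0 RPKM in outer and 30.5 RPKM in inner cells of the middle blastocyst with letter B, and 421 RPKM in outer and 417 RPKM in inner cells of the early blastocyst with letter A. At the 16-cell stage (about day 3), which carries letter B, it was 48.2 RPKM in outer and 78.2 RPKM in inner cells. Inner cells of the middle blastocyst with other letters stood at 308 RPKM (letter G) and 354 RPKM (letter H). All groups of letters D, G and H lay between 174 and 364 RPKM.

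Inner cells of letters A and B, of G and of H are set side by side here. There were 4 middle cells of B and 5 early cells of A, 4 middle and 3 early cells of G, and 4 and 2 of H. Letters may differ in embryo and in handling, which no label gives, and from A to B stage and letter cannot be told apart. From letter A to B, inner middle over early blastocyst cells, 23 of the 24 genes were measured and all 23 were at least 2-fold lower, with a median log2 ratio of -3.30. CCDC120 was the gene not measured there. Within letter G, 4 of the 23 measured were at least 2-fold lower, with a median of -0.51, and within letter H 0 were lower and 4 higher, with a median of 0.36. TPT1 had log2 ratios of -2.85 in outer cells, -3.40 in inner cells from A to B, -0.50 within G and 1.83 within H. Its mean in early inner cells of letter H, 3513 RPKM over 2 cells, was close to that of the letter B groups.

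**Figure D2:**
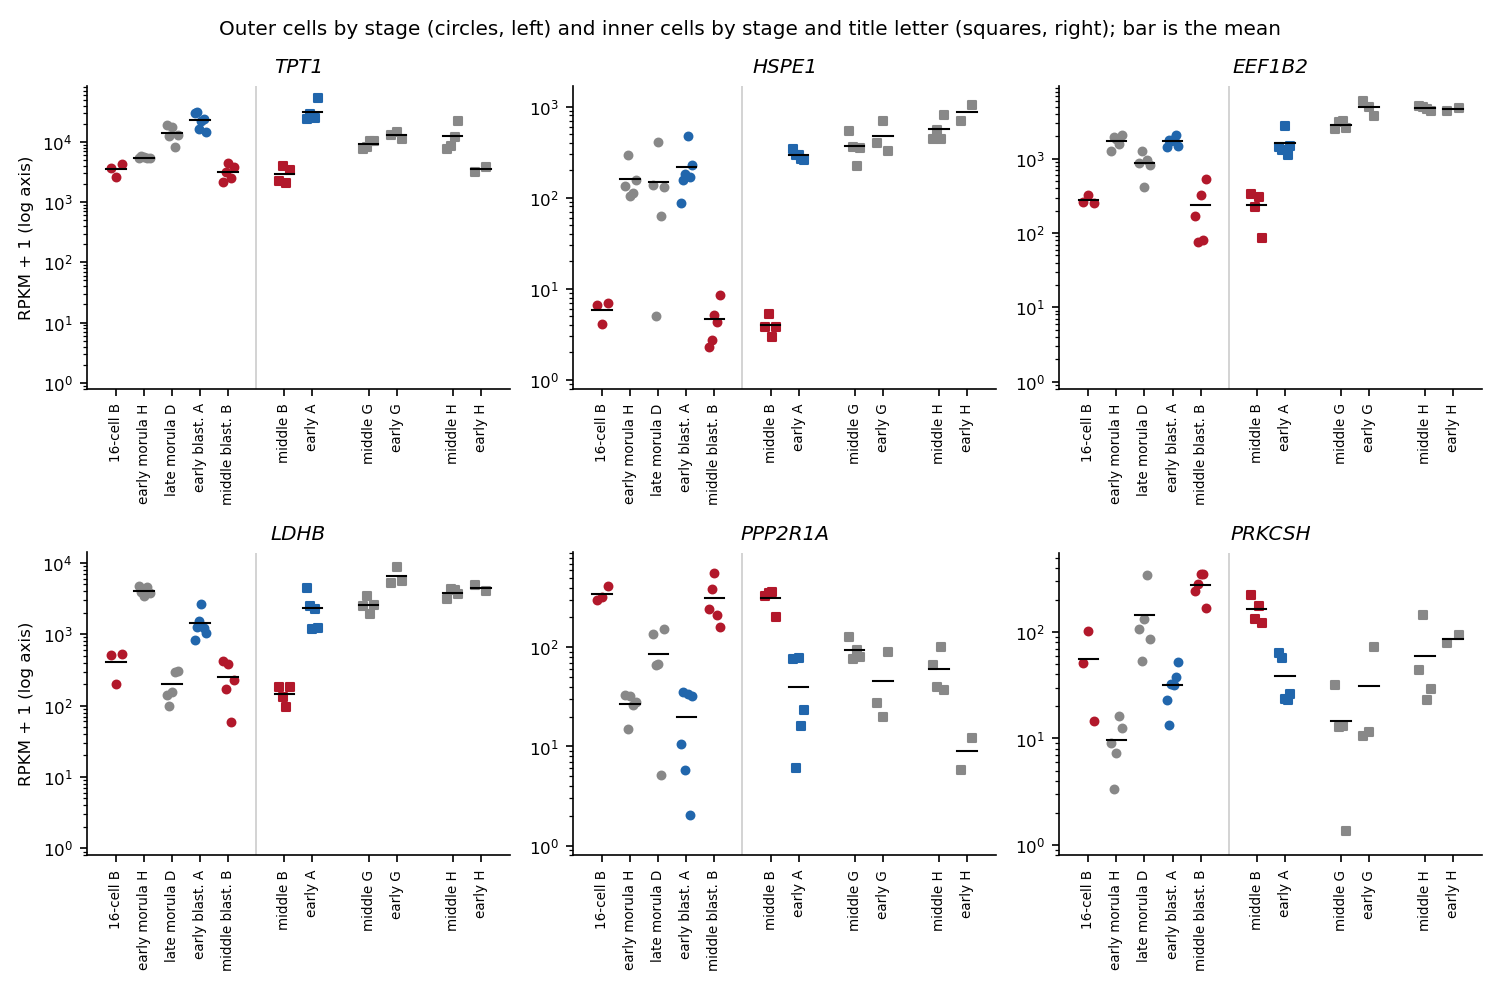
RPKM + 1 (log axis) of 6 genes with a clear gap, each point 1 cell and each bar a group mean, for outer cells by stage on the left and for inner cells by stage and letter on the right, with letter B in red, letter A in blue and other letters in grey. By group mean, HSPE1 and EEF1B2 are lowest and PPP2R1A is highest in the red groups, at both the 16-cell and the middle blastocyst stage, while TPT1 is as low in early inner cells of letter H.

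The 6 genes clearly higher in middle blastocyst cells were ATP13A2, FUT6, SGSM2, TWF2, PPP2R1A and PRKCSH. PPP2R1A, the scaffold of protein phosphatase 2A, stood at 241, 384, 564, 211 and 160 RPKM in middle blastocyst cells, against 9.69, 34.7, 4.80, 32.7, 1.02 and 31.4 RPKM in early blastocyst cells. PRKCSH, the beta subunit of glucosidase II in glycoprotein folding, averaged 277 ± 76.6 RPKM in middle and 30.8 ± 13.2 RPKM in early blastocyst cells. From A to B, 5 of the 6 were also at least 2-fold higher in inner middle blastocyst cells. TWF2, a twinfilin that caps actin filaments, was the exception: its log2 ratio was 6.23 in outer and -0.23 in inner cells. The median inner log2 ratio of the 6 genes from A to B was 2.58. Within letter G, 2 of the 5 measured were at least 2-fold higher and 3 lower (median -0.61). Within letter H, 4 of the 6 were higher and 0 lower (median 2.70).

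TWF2 stood at 288, 126, 248, 137 and 82.9 RPKM in middle blastocyst cells and at no more than 4.37 RPKM in early blastocyst cells. ATP13A2, a lysosomal polyamine exporter, had a log2 ratio of 6.79 in outer cells and 4.73 in inner cells from A to B. FUT6, a fucosyltransferase, had 6.74 in outer and 2.18 in inner cells from A to B, and SGSM2, a regulator of Rab proteins, 6.42 in outer and 5.74 in inner cells.

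The other genes that headed the non-overlapping lists rested on fewer cells. Among the 12 with the largest ratio upwards, every middle blastocyst cell reached 5 RPKM in 4, the clearly higher ATP13A2, FUT6, TWF2 and SGSM2, and a single cell carried 3 (ACP5 and ANKRD23 in B-03, CRYAB in B-01). PHGDH, which starts serine synthesis, had 65.1, 0.539, 534, 30.9 and 0.164 RPKM in middle blastocyst cells and at most 0.0348 RPKM in early blastocyst cells. RRAS, PFDN6, DHRS7B and PDIA5 were likewise high in 1 to 3 middle blastocyst cells.

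Among the 12 with the largest ratio downwards, every early blastocyst cell reached 5 RPKM in 2, CD320 and C14orf166. NOP16 and NDUFA8, for ribosome assembly and respiratory complex I, were at most 2.03 and 1.5 RPKM in middle blastocyst cells, and NOP16 averaged 181 ± 127 RPKM and NDUFA8 180 ± 190 RPKM in early blastocyst cells. PPA1, an inorganic pyrophosphatase, was between 55.6 and 138 RPKM in 5 early blastocyst cells and at 0.261 RPKM in A-10. SERPINF1, COL11A2, FGF4, PI4KB, METTL1, ZNF32 and FAM83F were each high in some early blastocyst cells only, and for SERPINF1 and FGF4 these were A-02 and A-05.

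Factors that specify trophectoderm held as many higher as lower members. Of 15 measured transcription factors of the lineage, 3 were higher by 2-fold or more and 3 lower in middle blastocyst cells, with a median log2 ratio of 0.25, against 32.9% higher and 35.9% lower in the background. Leaving out A-02 and A-05, 6 members were higher, 3 lower and the median 0.63, and over medians of cells 3 were higher, 0 lower and the median 0.96. GATA3 stood at 359, 1.2, 90.8, 170 and 670 RPKM in middle blastocyst cells and at 418, 281, 0.542, 238, 3.45 and 190 RPKM in early blastocyst cells. TEAD4, the Hippo-regulated factor, averaged 348 ± 301 RPKM in middle and 400 ± 165 RPKM in early blastocyst cells. The cells of the stages overlapped widely for both.

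CDX2 was at 5 RPKM or more in B-07 (85.2 RPKM) among middle blastocyst cells, and in A-05 (84.3 RPKM) and A-08 (19.3 RPKM) among early blastocyst cells. Its log2 ratio was -0.00, and 1.86 without A-05. GATA2 averaged 90.4 ± 84.7 RPKM in middle and 45.8 ± 74.8 RPKM in early blastocyst cells (log2 ratio 0.97). TFAP2C was above 5 RPKM in B-01 and B-06 and in A-08 and A-10.

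TFAP2A, an AP-2 factor of trophoblast, was at 139 RPKM in B-01, 39.6 RPKM in B-07 and at most 2.85 RPKM in early blastocyst cells (log2 ratio 4.26). ESRRB stood at 77.4, 103 and 33.3 RPKM in B-02, B-06 and B-07, and at 12.9 RPKM or less in early blastocyst cells (log2 ratio 3.75). Both showed the same in inner cells from A to B, with log2 ratios of 3.26 for TFAP2A and 4.09 for ESRRB. PPARG was carried by B-03 alone at 137 RPKM, and GCM1, which drives syncytium formation in the placenta, by A-02 at 71.3 and A-05 at 12.0 RPKM.

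Of the 4 keratins measured, 3 were at least 2-fold higher in middle blastocyst cells. KRT8 stood at 15587, 11800, 4348, 33808 and 36261 RPKM in middle blastocyst cells, against 8021, 7016, 6198, 8276, 5258 and 12138 RPKM in early blastocyst cells, a log2 ratio of 1.38. KRT19 stood at 2025, 1250, 3.25, 1201 and 1630 RPKM in middle and at 242, 798, 1.87, 879, 23.9 and 423 RPKM in early blastocyst cells, a log2 ratio of 1.63. Of the KRT19 values, those of 4 of the 5 middle blastocyst cells were above all 6 early blastocyst cells, and the exception was B-03.

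KRT18 had a log2 ratio of 0.16, and of 0.82 without B-02 and B-03. KRT7, the keratin of trophoblast in culture, was at 115 RPKM in B-01 and at 0.521 RPKM or less in the other 10 cells. Inner cells of the same letters were also rich in keratin: KRT8 averaged 16110 RPKM in inner middle cells of letter B and 4677 RPKM in inner early cells of letter A, whereas the group means of letters G and H were 14.6 to 572 RPKM in inner cells at both stages.

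Of 11 measured genes for sodium and water transport, 7 were higher by 2-fold or more and 1 lower in middle blastocyst cells (median log2 ratio 1.42). SCNN1A, the alpha subunit of the epithelial sodium channel, stood at 503, 67.8, 448, 0.0873 and 1.99 RPKM in middle and at 40.3, 6.85, 0.403, 41.3, 11.3 and 0.249 RPKM in early blastocyst cells (log2 ratio 3.53). For this gene 3 of the 5 middle blastocyst cells stood above all early blastocyst cells and the other two overlapped with them.

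AQP11, an intracellular water channel, had a log2 ratio of 2.46 and was above 100 RPKM in 4 of the 5 middle blastocyst cells and in A-02 alone of the early ones. ATP1B1, the beta subunit of the sodium pump, was above 5 RPKM in B-02 and A-08 only. Inner cells from A to B had 5 members of this list higher and 5 lower out of 13 measured (median log2 ratio 0.92). Within letter G, 1 was higher and 5 lower out of 10 measured (median -1.02). Within letter H, 9 were higher and 2 lower out of 12 measured (median 1.77).

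Junction genes had 9 of 20 measured members at least 2-fold higher and 4 lower in middle blastocyst cells, with a median log2 ratio of 0.79. Without B-01, 6 were higher and 4 lower, and the median was 0.12. PKP2, a desmosomal plakophilin, stood at 0.136, 13.3, 139, 63.2 and 32.1 RPKM in middle and at no more than 11.8 RPKM in early blastocyst cells (log2 ratio 2.78). CLDN4, a tight junction claudin named after its values were seen, averaged 2662 ± 1040 RPKM in middle and 950 ± 1026 RPKM in early blastocyst cells, and JUP, plakoglobin, likewise chosen, 196 ± 107 RPKM in middle and 70.6 ± 44.5 RPKM in early blastocyst cells. JUP had a log2 ratio of 1.46 in outer and 0.11 in inner cells from A to B, and CLDN4 1.49 in outer and 2.95 in inner cells.

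CTNNA1, alpha-catenin, had a log2 ratio of 1.84. The lower values of CTNNB1, beta-catenin, and PRKCZ, an apical polarity kinase, came from single early blastocyst cells, A-08 with CTNNB1 at 125 RPKM and A-09 with PRKCZ at 131 RPKM. Without A-08, CTNNB1 had a log2 ratio of 0.74, and without A-09, PRKCZ had 0.41.

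**Figure D3:**
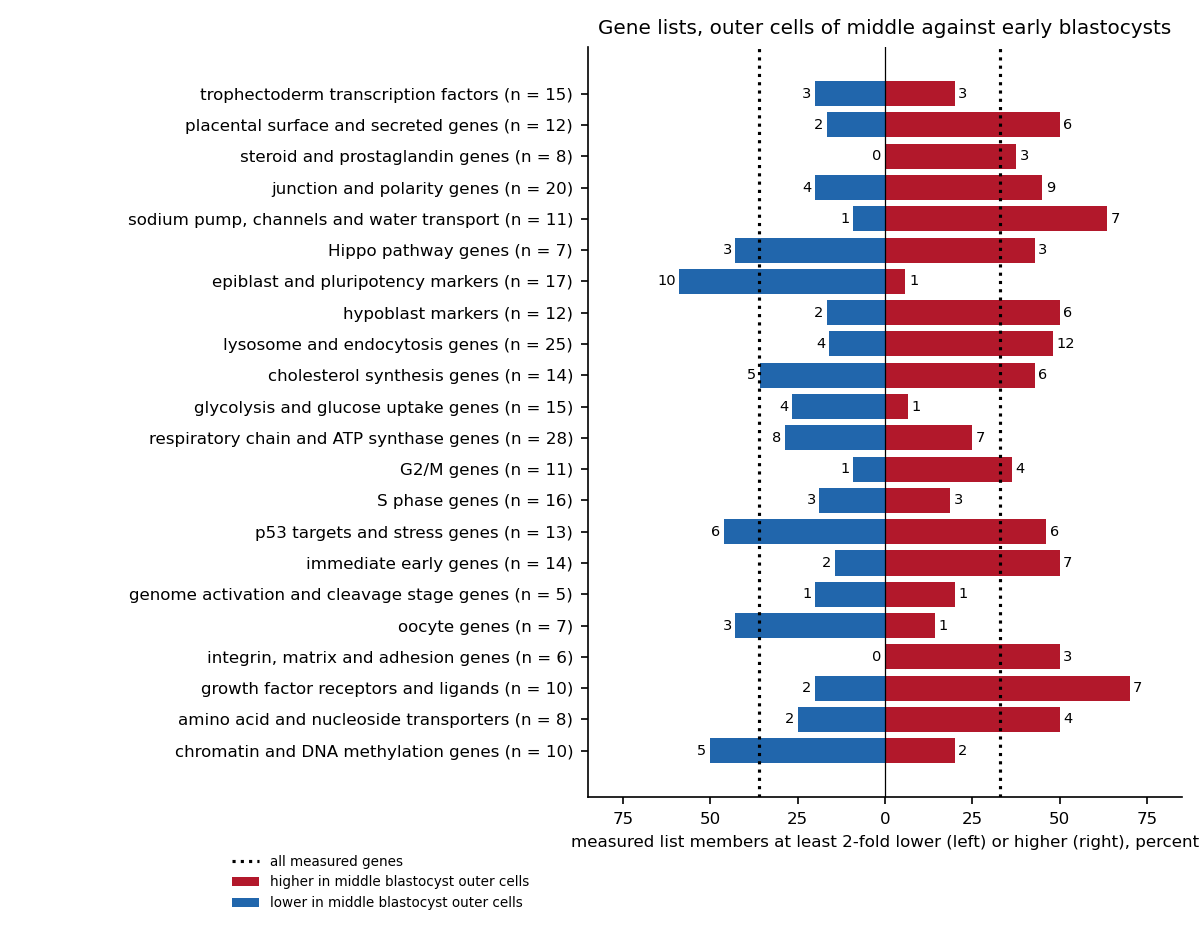
Share of the measured members of each gene list that were at least 2-fold higher (red, right) or lower (blue, left) in middle than in early blastocyst outer cells, with counts at the bar ends and dotted lines at the shares of all measured genes (32.9% and 35.9%), for lists with at least 5 measured members. Several lists pass either line: growth factor genes have 7 of 10 members higher, epiblast markers 10 of 17 lower, and stress and p53 target genes 6 of 13 in each direction.

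Lysosome and endocytosis genes had 12 of 25 measured members at least 2-fold higher and 4 lower in middle blastocyst cells, with a median log2 ratio of 0.98. GRN, progranulin, a secreted and lysosomal protein, did not overlap between the stages: it stood at 1778, 4042, 1117, 3228 and 1232 RPKM in middle blastocyst cells and at 778, 664, 769, 238, 1003 and 577 RPKM in early blastocyst cells, a log2 ratio of 1.76. Inner cells from A to B had a log2 ratio of 1.64 for GRN, and inner cells within G and H -0.10 and 0.27.

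Of the lysosomal genes, 4 were picked out for high values in middle blastocyst cells, so their direction is fixed by the choice. CTSB, cathepsin B, averaged 1295 ± 832 RPKM in middle and 266 ± 266 RPKM in early blastocyst cells (log2 ratio 2.28). PSAP, the precursor of the saposins that aid lipid breakdown, averaged 526 ± 618 RPKM in middle and 78.3 ± 81.0 RPKM in early blastocyst cells (log2 ratio 2.73). HEXA, a hexosaminidase subunit, had a log2 ratio of 2.88, and CTSD, cathepsin D, 1.56.

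In each of these 4 at least 1 early blastocyst cell reached the lowest middle blastocyst cell. Other members, chosen by size of ratio, rested on fewer cells. MCOLN1 (lysosomal calcium channel) was led by B-03 and TPP1 (a peptidase) by B-03 and B-07.

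Receptors and ligands of growth factor pathways had 7 of 10 measured members at least 2-fold higher and 2 lower, with a median log2 ratio of 2.43. FGFR4, a receptor for fibroblast growth factors, stood at 216, 0.993, 226, 122 and 121 RPKM in middle blastocyst cells, against 0, 0.0211, 0.0447, 0.975, 2.39 and 0.0197 RPKM in early blastocyst cells (log2 ratio 6.46). It was high in 4 of the 5 middle and in none of the 6 early blastocyst cells. In inner cells FGFR4 averaged 0.433 RPKM in middle blastocyst cells of letter B and 0.0284 RPKM in early ones of letter A, and it stood at 50.0 RPKM in outer and 23.7 RPKM in inner cells of the 16-cell stage.

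Other receptors of the list were carried by 1 or 2 cells each. ERBB2 was at 33.3 and 26.3 RPKM in B-01 and B-07, FGFR2 at 89.4 RPKM in B-03, ERBB3 (named after its values were seen) at 46.8 RPKM in B-01 and ACVR1B, an activin receptor, at 88.9 RPKM in A-09. With medians over cells in place of means, the median log2 ratio of the list was -0.94, with 1 member higher and 1 lower. Without B-01, 4 were higher and 3 lower, and the median was 1.12.

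POR, the electron donor of microsomal cytochrome P450 enzymes in steroid synthesis, stood at 362, 52.4, 338, 399 and 100 RPKM in middle blastocyst cells and at 2.57, 5.79, 0.720, 56.2, 0.611 and 1.5 RPKM in early blastocyst cells (log2 ratio 4.36). Only A-08 reached the lowest middle blastocyst cell. In inner cells from A to B its log2 ratio was 1.95. Of the 8 measured steroid and prostaglandin genes, 3 were at least 2-fold higher and 0 lower (median log2 ratio 0.71). Without A-02 and A-05, 5 were higher and 1 lower (median 1.13). Besides POR, the members higher over all cells were PTGES, a prostaglandin E synthase, at 72.0 and 85.3 RPKM in B-01 and B-07 and 39.0 RPKM in A-08, and FDXR, ferredoxin reductase, whose cells overlapped. STARD3, a cholesterol carrier, had a log2 ratio of 0.75.

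Placental surface and secreted genes had 6 of 12 measured members at least 2-fold higher and 2 lower (median log2 ratio 0.43). Without B-06, 4 were higher and 4 lower (median -0.11), and over medians of cells 3 were higher and 4 lower (median -0.29). CCR7 was carried by B-06 at 89.4 RPKM, LRP2 (megalin) by B-01 at 88.0 RPKM and LGALS3 by B-07 at 30.4 RPKM. SDC1, syndecan 1 of the syncytiotrophoblast surface, averaged 9.19 RPKM in middle and 42.5 RPKM in early blastocyst cells. Matrix and adhesion genes had 3 of 6 measured members higher and 0 lower, and 1 higher and 1 lower without B-01. PLAU (urokinase) and LAMA3, of the higher ones, were carried by B-01. CD151, a tetraspanin, had a log2 ratio of 0.79. CCR7, LRP2, LGALS3, PLAU and LAMA3 were thus each led by a single middle blastocyst cell.

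**Figure D4:**
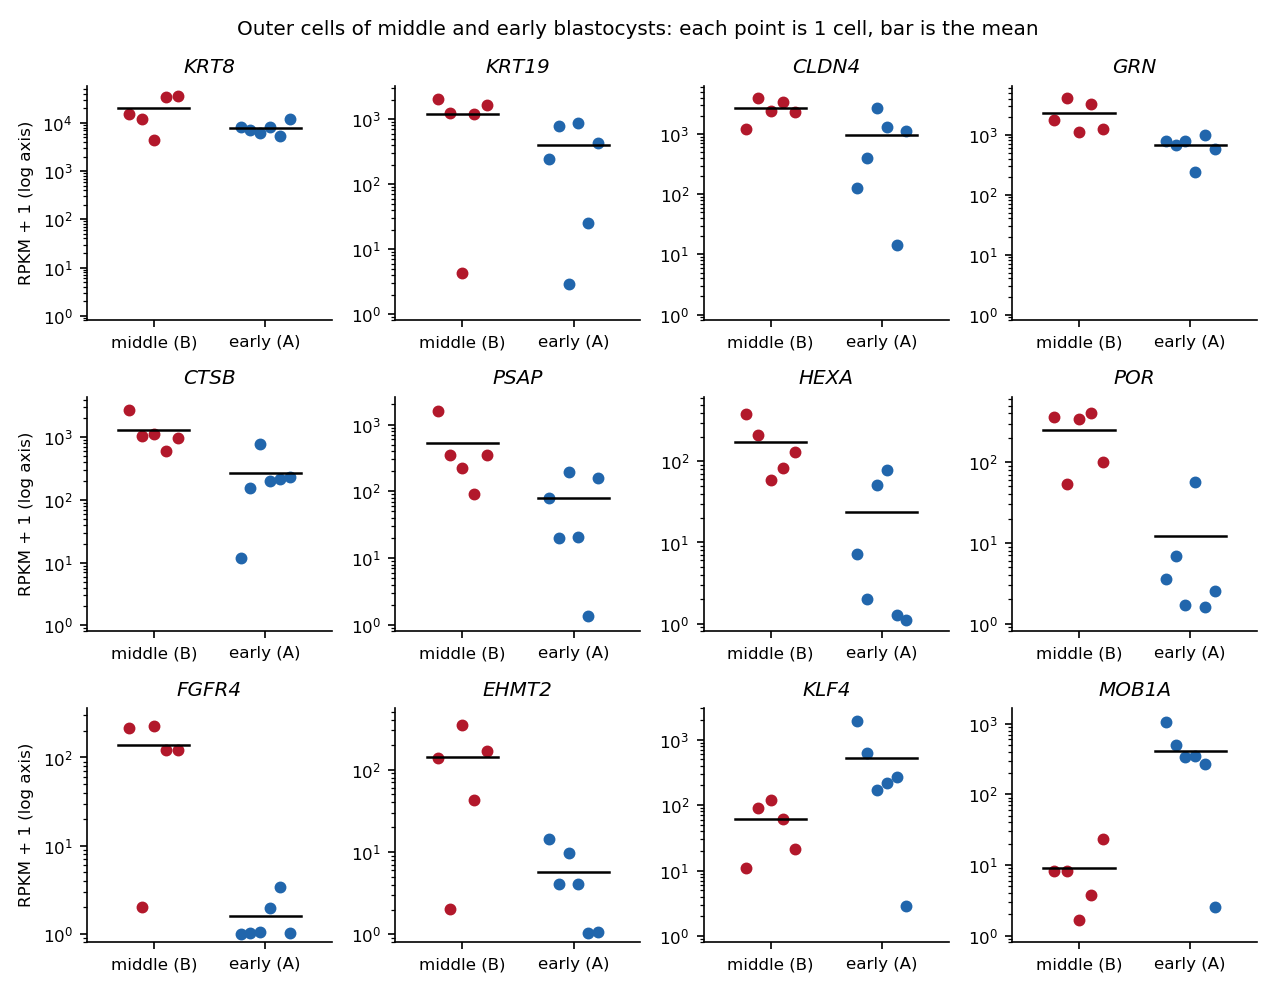
RPKM + 1 (log axis) of 12 genes in each outer cell, middle blastocyst (red, left) and early blastocyst (blue, right), with the mean as a bar. GRN does not overlap, FGFR4 is high in 4 of 5 middle blastocyst cells, and KLF4 and MOB1A are high in 5 of 6 early blastocyst cells.

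Hippo pathway genes went both ways, with 3 of 7 measured members at least 2-fold higher and 3 lower. NF2, merlin, an upstream activator of the pathway, stood at 42.6, 35.5, 0.509, 40.6 and 50.2 RPKM in middle and at 0.209, 2.31, 3.85, 1.58, 0.223 and 0.263 RPKM in early blastocyst cells (log2 ratio 3.86). MOB1A, the adaptor of the LATS kinases, stood at 7.08, 7.08, 0.663, 2.80 and 22.0 RPKM in middle and at 1041, 496, 334, 348, 270 and 1.54 RPKM in early blastocyst cells (log2 ratio -5.54). The cells were separated apart from B-03 for NF2 and A-10 for MOB1A.

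In inner cells from A to B the log2 ratio was 0.62 for NF2 and -4.46 for MOB1A, and MOB1A had 1.3 within G and 1.02 within H. LATS2 was carried by A-02 and A-05, and VGLL4, a TEAD antagonist, by 3 middle blastocyst cells.

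Of 17 measured markers of the epiblast, 10 were at least 2-fold lower and 1 higher in middle blastocyst cells (median log2 ratio -2.04). Without A-02 and A-05, 7 were lower and 1 higher, with a median of -0.97. With medians over cells in place of means, 4 were lower and 1 higher, and the median log2 ratio was -0.04. FGF4 was at 635 RPKM in A-02 and 93.8 RPKM in A-05, at most 2.83 RPKM in the other early blastocyst cells and at most 0.202 RPKM in middle blastocyst cells, and its log2 ratio of -6.82 became -1.09 without that pair. PRDM14, a germline and pluripotency factor, was likewise above 1 RPKM in A-02 and A-05 alone. TDGF1, a co-receptor for NODAL, was also at 24.6 RPKM in A-08, and VENTX, a homeobox factor, at 189 RPKM in A-06.

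KLF4 stayed past 2-fold without that pair and NANOG did not. KLF4, a naive pluripotency and epithelial factor, stood at 10.0, 90.5, 118, 59.7 and 20.4 RPKM in middle and at 1895, 632, 172, 217, 265 and 1.91 RPKM in early blastocyst cells. Its log2 ratio was -3.13, and -1.44 without A-02 and A-05, and all early blastocyst cells but A-10 were above all middle blastocyst cells. NANOG stood at 88.9, 0.810, 3.54, 0.226 and 0.268 RPKM in middle and at 292, 57.2, 109, 16.3, 3.9 and 1.32 RPKM in early blastocyst cells (log2 ratio -2.04, and -0.77 without A-02 and A-05). SOX2 was under 5 RPKM in all 11 cells, and POU5F1 had a log2 ratio of -0.03. In inner cells from A to B, 9 of 19 measured members were higher and 3 lower (median log2 ratio 0.49). Within letter G, 4 of 17 were higher and 9 lower (median -1.04), and within letter H 5 of 15 were higher and 3 lower (median 0.40).

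Of 12 measured markers of the hypoblast, 6 were higher by 2-fold or more and 2 lower in middle blastocyst cells (median log2 ratio 1.35). Leaving out B-02 and B-03, 3 members were higher, 6 lower and the median -1.86. SOX17 stood at 0.210, 308, 600, 0.101 and 0.0199 RPKM in middle blastocyst cells and at 0.0226, 0.0513, 204, 37.5, 25.1 and 0.144 RPKM in early blastocyst cells. GATA4 was at 310 RPKM in B-03 and no more than 0.302 RPKM in the other middle blastocyst cells, and between 9.95 and 65.4 RPKM in 5 early blastocyst cells.

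GATA4 was thus seen in fewer middle than early blastocyst cells although its mean was higher, at 62.1 RPKM in middle and 37.8 RPKM in early blastocyst cells. LAMA1, a basement membrane laminin, was carried by B-01 at 503 RPKM and PDGFRA by B-02 at 14.0 RPKM. Summed over the 9 defining markers, B-02 and B-03 held 3680 and 4453 RPKM, against 56.3 to 716 RPKM in the other middle blastocyst cells and 27.9 to 616 RPKM in early blastocyst cells.

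Glycolysis genes had 1 of 15 measured members higher and 4 lower (median log2 ratio -0.43). Besides LDHB these were HK2, led by A-08 at 102 RPKM, PGAM1 and LDHA. PGAM1 averaged 307 RPKM in middle and 913 RPKM in early blastocyst cells. Respiratory chain genes had 7 of 28 higher and 8 lower (median 0.18, and -0.39 without B-01).

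ATP5O, a subunit of ATP synthase, averaged 29.0 ± 29.9 RPKM in middle and 398 ± 386 RPKM in early blastocyst cells. NDUFS5 of complex I averaged 0.107 ± 0.120 RPKM in middle and 50.1 ± 49.8 RPKM in early blastocyst cells. Ribosomal protein genes, a set read after the clearly lower genes had been seen, had 22 of 73 measured members lower and 6 higher (median -0.48), and their summed level was 84448 to 120177 RPKM in middle and 112040 to 150046 RPKM in early blastocyst cells. Inner cells from A to B had 39 of 74 lower and 6 higher. Within letter G, 0 of 75 were lower and 2 higher, and within letter H 30 of 75 were lower and 2 higher. Cholesterol synthesis genes had 6 of 14 higher and 5 lower, with a median log2 ratio of -0.06 that was 0.72 without A-05 and 0.85 without A-06. Of those with the largest ratios EBP was led by A-06 at 351 RPKM and PMVK by B-02 at 175 RPKM.

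Amino acid transporters had 4 of 8 measured members higher and 2 lower. SLC7A8, a carrier of neutral amino acids, stood at 35.9, 84.3, 202, 113 and 27.3 RPKM in middle and at 0.0864, 2.19, 82.4, 1.97, 6.14 and 17.3 RPKM in early blastocyst cells (log2 ratio 2.27), with A-06 as the early cell that overlapped. SLC1A5, a glutamine carrier, was at most 0.155 RPKM in middle blastocyst cells and at 48.2, 5.73 and 116 RPKM in A-06, A-08 and A-10. In inner cells from A to B, SLC7A8 had a log2 ratio of -2.12.

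Cell cycle genes were read in 2 lists. G2/M genes had 4 of 11 higher and 1 lower (median log2 ratio 0.27), and S phase genes 3 of 16 higher and 3 lower (median -0.32). Without A-08, 6 G2/M genes were higher and 1 lower (median 1.9). For S phase genes, 2 were higher and 10 lower without B-01 (median -1.09), and 3 higher and 8 lower over medians of cells (median -1.98). PLK1, a mitotic kinase, stood at 2.68, 1668, 321, 1252 and 1278 RPKM in middle and at 1.29, 77.7, 0.818, 193, 538 and 18.2 RPKM in early blastocyst cells (log2 ratio 2.70). CCNB1, mitotic cyclin B1, averaged 8.45 RPKM in middle and 39.5 RPKM in early blastocyst cells, the opposite direction to PLK1. MKI67, the proliferation antigen, averaged 10.9 RPKM in middle and 1.32 RPKM in early blastocyst cells, and KIF11, a spindle motor, was high in B-03 alone at 39.3 RPKM. Among S phase genes, MCM4 of the replicative helicase averaged 63.8 ± 42.7 RPKM in middle and 21.8 ± 21.0 RPKM in early blastocyst cells. FEN1 was led by A-02 at 54.3 RPKM, RFC4 by A-09 at 69.6 RPKM and UHRF1 by B-01 at 110 RPKM.

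Chromatin genes had 2 of 10 measured members higher and 5 lower (median log2 ratio -0.64, and 0.28 without A-02). EHMT2, the histone methyltransferase G9a, stood at 138, 1.06, 350, 41.8 and 168 RPKM in middle and at 13.4, 3.12, 8.71, 3.04, 0.0364 and 0.0588 RPKM in early blastocyst cells (log2 ratio 4.62). All middle blastocyst cells but B-02 were above all early blastocyst cells. Histone H2AFZ averaged 121 ± 57.1 RPKM in middle and 434 ± 297 RPKM in early blastocyst cells, and EED, a Polycomb subunit, was carried by A-02 and A-05. In inner cells from A to B, EHMT2 had a log2 ratio of 1.48 and H2AFZ -2.32.

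Stress and p53 target genes had 6 of 13 higher and 6 lower (median log2 ratio 0.54). Without A-05, 6 were higher and 4 lower (median 1.25), and without B-06, 5 were higher and 6 lower (median -0.38). Among immediate early genes, which answer handling within minutes to hours, 7 of 14 were higher and 2 lower (median log2 ratio 1.18, and 0.01 without B-02 and B-03). GDF15 was at 213 and 237 RPKM in B-01 and B-02 and at most 1.25 RPKM in the other 9 cells. BAX was at 17.9, 36.9 and 98.2 RPKM in B-01, B-02 and B-03 and under 1 RPKM elsewhere. IER3 was high in B-02 and B-07, NR4A1 in B-07, ATF3 in B-06, DUSP1 in A-02, A-05 and A-08, and DDIT4 in A-08. Each of these genes was thus led by 1 to 3 cells, and the part of these lists in the other differences was not tested.

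Genes inherited from the oocyte had 3 of 7 measured members lower and 1 higher. OOEP and KHDC3L, members of the subcortical maternal complex, averaged 56.4 ± 50.9 RPKM and 52.3 ± 95.3 RPKM in middle blastocyst cells, against 230 ± 254 RPKM for OOEP and 375 ± 408 RPKM for KHDC3L in early blastocyst cells. TLE6, of the same complex, was at 72.1 RPKM in B-07, and GDF9 at 47.2 RPKM in A-08. In inner cells from A to B, OOEP and KHDC3L had log2 ratios of 1.6 and 1.3. Of the 5 measured genes of genome activation, KHDC1L averaged 587 RPKM in middle and 1098 RPKM in early blastocyst cells, KLF17 was carried by A-02 and A-05, and DPRX and H3F3C overlapped. GRB10 was the only imprinted gene measured, at a log2 ratio of -0.51.

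Beyond the named genes, outer and inner cells were set side by side over all genes. Inner middle and early blastocyst cells numbered 4 and 5 from A to B, 4 and 3 within G, and 4 and 2 within H. Means over fewer cells vary more, and the part of this in the values below was not tested. From A to B, inner cells had 29% of 5202 measured genes higher and 43.3% lower, within G 32.4% of 6676 higher and 24.9% lower, and within H 35.8% of 6279 higher and 27.6% lower. Across the 4136 genes measured in both, the outer log2 ratio and the inner ratio from A to B had a Pearson correlation of 0.33 and a Spearman correlation of 0.35. The same outer ratio had Pearson correlations of 0.01 with the inner ratio within G (4346 genes) and 0.11 within H (4179 genes), with Spearman values of 0.02 and 0.12. These are descriptions across genes, which are not independent replicates, and cells of a letter may share library handling.

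Of the genes lower in outer middle blastocyst cells and measured in both, 61.2% were also lower in inner cells from A to B, which is 53.7% of the inner genes lower. Of those higher, 45.1% were also higher in inner cells, which is 47.4% of the inner genes higher. Within G, 23.1% of the outer genes lower were also lower in inner cells (37.5% of the inner genes lower) and 33.5% of those higher were also higher (34% of the inner). Within H the shares were 24.8% for lower genes (46.1% of the inner) and 44.9% for higher genes (33.3% of the inner). Of the outer genes lower, 15.7% were higher in inner cells from A to B, 28.6% within G and 33.7% within H. Of the outer genes higher, 25.4%, 25.3% and 18.3% were lower in inner cells, in that order. Over all genes measured in inner cells, in that order, 43.3%, 24.9% and 27.6% were lower, and 29%, 32.4% and 35.8% higher. Those sets held 5202, 6676 and 6279 genes, against 4136, 4346 and 4179 measured in both outer and inner cells. The shares of the larger sets are therefore no baseline for the overlaps above. Shares among the genes measured in both are not given here.

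**Figure D5:**
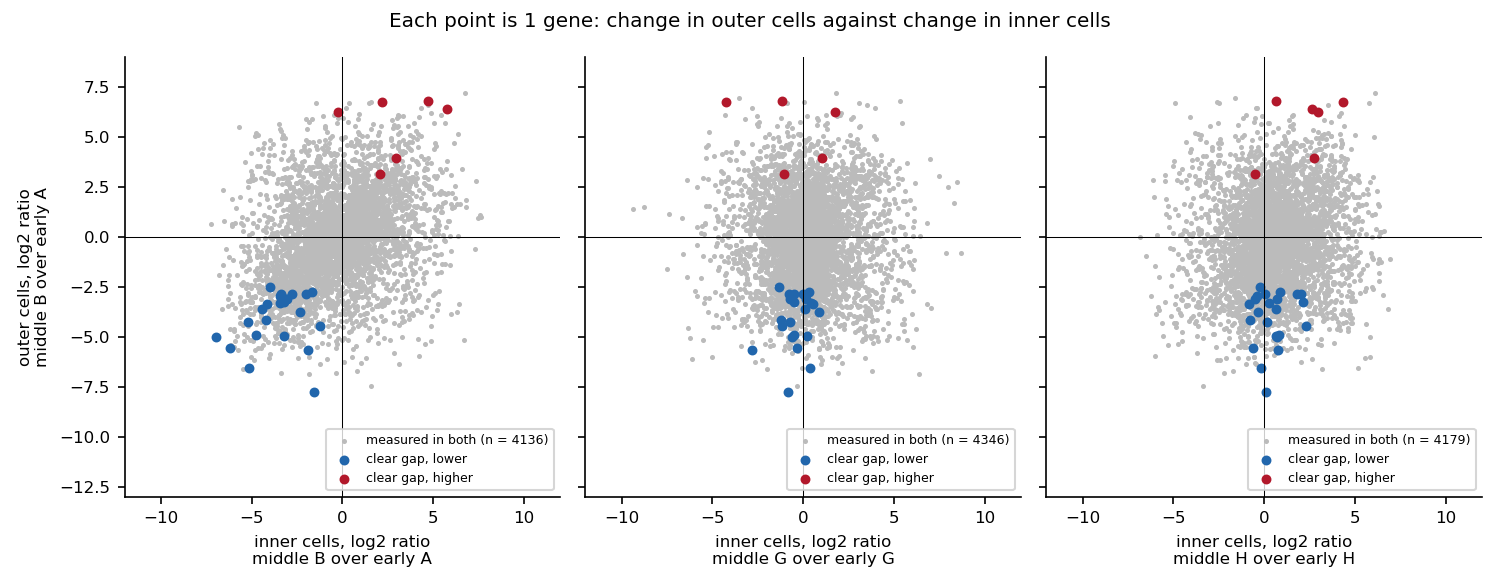
Log2 ratio of middle over early blastocyst in outer cells (vertical) against that in inner cells (horizontal) for inner cells from letter A to B, within G and within H, each point 1 gene measured in both, with clearly lower genes in blue and clearly higher genes in red. The blue genes lie to the left of 0 from A to B and around 0 within G and H.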

How the data were processed

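The deposited matrix gives each gene symbol 1 number in each cell, with no unit stated. It was taken to be RPKM computed by the authors: the numbers have decimals, cell totals differ, and small numbers step up in fixed increments for each gene. Over 7388 genes, 98.6% of low values (up to 5 reads) were whole within 0.05 of a step, which gave the relative depth; total reads per cell are unknown. The submitters' processing notes name FastQC, TopHat2 2.1.0, HTSeq and DESeq2 without a role or order. Genome build, annotation and strand setting are not given in the sources used here, so overlapping genes and close copies are uncertain. No molecular identifiers are mentioned.

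From these values, group means over cells were compared as log2 ratios with a pseudocount of 1 RPKM, over genes with a mean of at least 5 RPKM in either stage, and calls were made at 2-fold. No overlap means that the lowest cell of one stage exceeds the highest of the other. A fold on this scale understates the change of low genes. Neither a count model nor any test was run, since RPKM are not counts and each stage is 1 sample with no embryo named. How often such calls would be wrong in cells with this spread was not tested.

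The members follow the titles of the cells, and they and the 28 gene lists were chosen with earlier results of these data known; a ribosomal protein list and the clear gap were added afterwards. Named genes are the 12 non-overlapping genes with the largest ratio in each direction, up to 4 members with the largest absolute ratio and every non-overlapping member of each list, and fixed lineage markers. CTSB, PSAP, HEXA, CTSD, CLDN4, JUP, ERBB3 and the genes with a clear gap outside that rule were chosen after their values were seen. Every column matched a sample title, with 0 left over, and 14282 of 16049 symbols stand in the RefSeq gene table, which was used for names only. A few genes that the rule names are not reported here. No sequence is shown. Alternatives covered the pseudocount, the minimum level, the fold, medians, scaling, and leaving out cells. Python 3.11.15, numpy 2.4.6, pandas 2.3.3 and matplotlib 3.10.9 were used.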

Additional observations from a re-analysis of the deposited data

Results flagged for a closer look

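For the 157 genes named by rule or after their values were seen, 298 groups of values were looked at for a cell far from the others of its own stage on the log2(RPKM + 1) scale. In 75 of them the gap from the highest or lowest cell to its neighbour took up most of the range of the stage. Chance gives this in about 1 in 20 groups of normally distributed values. Many of the cells below are single expressers of a gene that is near 0 in the rest, and many genes were named for large ratios. That rate therefore cannot be carried over to these groups. Values are RPKM.

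Among middle blastocyst cells, B-01 stood above the others for CRYAB at 374, DUSP1 at 34.5, ERBB3 at 46.8, KRT7 at 115, LAMA1 at 503, LAMA3 at 29.4, PLAU at 198, PRKCZ at 40.2 and SDHC at 65.7, and below them for ISCU at 0.562 and PLK1 at 2.68. B-02 stood above for ATP1B1 at 31.9, FGF4 at 0.202 and PDGFRA at 14.0. It stood below for AQP11 at 0.355, FDXR at 0.950, FGFR4 at 0.993, JUP at 6.10 and KHDC1L at 43.3. B-03 stood above for ACP5 at 733, ANKRD23 at 478, COL1A2 at 37.6, FGFR2 at 89.4, FOXA2 at 56.5, GATA4 at 310, KIF11 at 39.3 and PPARG at 137. The same cell stood below for KRT19 at 3.25, MCM4 at 0.0989, MRPL15 at 0.195, NF2 at 0.509 and PGAM1 at 14.3. B-06 stood above for CCR7 at 89.4 and GAPDHS at 49.2. B-07 stood above for CD14 at 91.8, CDX2 at 85.2, EED at 0.196, FEN1 at 8.93, KLF17 at 0.119, LGALS3 at 30.4, NR4A1 at 41.9, SLC6A6 at 2.61 and TLE6 at 72.1.

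Among early blastocyst cells, A-08, which had the most genes at 1 RPKM or more, stood above the others for 17 of these genes. Those above 5 RPKM were CTNNA1 at 19.5, CTNNB1 at 125, DDIT4 at 74.7, ESRRB at 12.9, GDF9 at 47.2, PMVK at 11.6 and PTGES at 39.0. The lower ones were BAX at 0.563, CCR7 at 0.193, COL1A2 at 0.754, DHRS7B at 0.0383, ERBB3 at 0.298, FOXA2 at 3.52, FUT6 at 0.861, LSS at 3.20, NR4A1 at 0.556 and RRAS at 0.0715. A-02 stood above for SOX2 at 3.54, and A-05 for KRT7 at 0.107. A-06 stood above for ERBB2 at 0.595, GDF15 at 0.270, IER3 at 0.796, KIF11 at 0.0382 and SLC36A1 at 0.0112. A-09 stood above for ACVR1B at 88.9, GAPDHS at 48.9 and RFC4 at 69.6. A-10 stood above for ATF3 at 0.0308 and below for JUP at 3.26, KLF4 at 1.91, MOB1A at 1.54 and PPA1 at 0.261.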

How the results depend on the processing

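No paired analysis was possible because the stages share no embryo, and the numbers in the titles only name cells. Counts are given for middle over early blastocyst cells, where 1741 genes were at least 2-fold higher and 1898 lower. A pseudocount of 10 RPKM gave 1150 higher and 1250 lower, a minimum mean of 20 RPKM 1048 and 1093, and a 4-fold call 1129 and 1251. Medians over cells gave 958 and 1264, and 41 genes higher without overlap in place of 85. Scaling to the same sum per cell gave a median log2 ratio of all genes of 0.09 in place of -0.09, and 51.8% of calls were higher in place of 47.8%. Of the 157 named genes, 0 that were at least 2-fold higher or lower changed direction with this scaling. Changes of sign among smaller ratios were not counted.

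Leaving out 1 cell at a time gave 1469 to 1861 genes higher, 1778 to 2103 lower, 89 to 189 higher and 120 to 201 lower without overlap, and 6 to 18 higher and 24 to 47 lower with a clear gap. The count without overlap came to 189 (higher) without A-08, 128 (higher) without B-03, 201 (lower) without B-07 and 191 (lower) without A-10. With a clear gap it came to 47 lower without A-10, and to 12, 18, 14, 14 and 10 higher without B-01, B-02, B-03, B-06 and B-07, and 12 higher without A-06 or without A-08. Chosen after seeing the data, leaving out A-02 and A-05 gave 182 genes lower without overlap and 12 higher and 44 lower with a clear gap. Leaving out B-02 and B-03 gave 207 higher and 217 lower without overlap and 45 higher and 44 lower with a clear gap. Fewer cells make separation easier by construction.

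Only ratios and list medians of at least 2-fold in either direction are listed here for a change of sign. Smaller list medians changed sign too. Over medians of cells, placental genes went from 0.43 to -0.29, respiratory chain genes from 0.18 to -0.25 and Hippo genes from -0.20 to 1.35. Some log2 ratios past 2-fold changed sign. Over medians these were hypoblast markers (median -0.15), growth factor genes (-0.94), ATP1B1 (-0.28), DDIT4 (0.29), DPRX (-2.68), FGFR2 (-0.33), FOXA2 (-0.051), LAMA1 (-0.15), SDHC (-0.11) and SOX17 (-3.49), and over means of log2 values DPRX (-0.41). Without B-02 and B-03 they were hypoblast markers (-1.86), APOA1 (-0.75), ATP1B1 (-0.97), COL1A2 (-0.14), FGFR2 (-0.81), FOXA2 (-0.69), PMVK (-0.16) and SOX17 (-5.36). Leaving out 1 cell, the log2 ratio ranged from -1.02 to 2.33 for ATP1B1, -0.14 to 3.20 for COL1A2, -3.01 to 0.74 for CTNNB1, -3.56 to 0.40 for DDIT4, -0.70 to 1.87 for DPRX, -0.59 to 3.70 for FGFR2 and -0.61 to 3.58 for FOXA2. It ranged from -2.92 to 0.17 for HK2, -1.22 to 4.21 for LAMA1, -1.22 to 3.28 for LRP2, -0.38 to 5.21 for PMVK, -4.60 to 0.41 for PRKCZ, -0.73 to 3.32 for SDHC and -0.25 to 3.64 for UHRF1. The cause was not tested.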
